A study of Homo sapiens with 8 samples.

Results

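The genes described are 10 regulators of the actin cytoskeleton, namely RHOA, ROCK1, ROCK2, LIMK1, LIMK2, SSH1, CFL1, TWF1, FSCN1 and RAP1B. They are 10 of the 43317 gene names in the scanner files and were chosen by name, with earlier results of these data known. Expression was measured on 8 two-colour Agilent arrays of 60-base probes. Each array paired Cy5-labelled RNA from cells given 1 mature miRNA with Cy3-labelled RNA from mock cells, that is, cells of that line given no miRNA. HCT116, a colorectal cancer cell line, received the 5p or the 3p strand of miR-139 or of miR-143. PANC-1, a pancreatic cancer cell line, received miR-30c-5p or the 3p strand of miR-30c-2, or either strand of miR-30a. Transfection used Lipofectamine RNAiMAX, and the labels give neither a dose nor a time of harvest. The question each array addresses is which transcripts differ between cells given that miRNA and mock cells.

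RHOA is a small GTPase that, when bound to GTP, activates the protein kinases ROCK1 and ROCK2. These kinases phosphorylate the LIM kinases LIMK1 and LIMK2, which phosphorylate cofilin (CFL1) and so block its severing of actin filaments. The phosphatase SSH1 reverses that step, TWF1 (twinfilin) binds actin monomers and filament ends, FSCN1 (fascin) bundles filaments in protrusions, and RAP1B is a Ras-family GTPase of adhesion signalling. A miRNA guides Argonaute proteins to transcripts that pair with its seed, bases 2 to 8, and such transcripts are often degraded. Among the members, ROCK2 and RAP1B are reported targets of miR-139-5p, FSCN1 and LIMK1 of miR-143-3p, and TWF1 of the miR-30 family.

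The 8 transfected miRNAs are shown because their seeds decide which of them could pair with the same transcripts. They are written 5′ to 3′ as in RefSeq, with the seed in capitals.
miR-139-5p: uCUACAGUgcacgugucuccagu
miR-139-3p: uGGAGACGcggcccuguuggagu
miR-143-5p: gGUGCAGUgcugcaucucuggu
miR-143-3p: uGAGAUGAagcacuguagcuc
miR-30c-5p: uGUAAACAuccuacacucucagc
miR-30c-2-3p: cUGGGAGAaggcuguuuacucu
miR-30a-5p: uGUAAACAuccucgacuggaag
miR-30a-3p: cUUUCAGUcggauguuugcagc
The 5p strands of miR-30c and miR-30a have the seed GUAAACA in common, and each of the other 6 miRNAs has a seed of its own. On GRCh38.p14 miR-139-5p lies on the minus strand at chr11:72615102-72615124 and miR-143-3p on the plus strand at chr5:149428978-149428998. The sequence of miR-30a-5p is at chr6:71403595-71403616 and that of miR-30a-3p at chr6:71403554-71403575, both on the minus strand. The mature miR-30c-5p is encoded by MIR30C1 on chromosome 1 and by MIR30C2 on chromosome 6.

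Each miRNA was on 1 array, so no ratio below has an error across replicates, no test was possible for it, and precision is limited by how few arrays there were. The 2 arrays of a precursor share their mock cells as far as the signals show. The SD of the log2 Cy3 difference over 26005 probes was 0.070 to 0.083 between such arrays. Between the mock samples of the miR-139 and miR-143 arrays it was 0.275 to 0.279, and between those of the miR-30c and miR-30a arrays 0.166 to 0.171. They are called mock cultures below, but the labels do not say whether they were separate cultures, extracts or labellings. Comparisons of 1 precursor therefore share a control and are given side by side. All arrays were on 1 slide with the lines in separate columns, so line and slide column cannot be told apart. The dyes were not swapped, so a dye effect of a single probe cannot be told apart from an effect of transfection.

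The lines were checked against their markers. CDH1 and EPCAM, epithelial adhesion genes, were higher in mock HCT116 by 3.03 and 4.43 on the log2 scale. VIM, ZEB1 and CDH2, mesenchymal genes, were higher in mock PANC-1, with differences of HCT116 minus PANC-1 of -8.87, -2.49 and -1.59. FN1 was not well above background on any mock channel, KRT20 and TWIST1 were so on 2 of 4 HCT116 arrays and on no PANC-1 array, LGALS4 on the 4 PANC-1 arrays alone, and CDX1 differed by -0.07. For miR-143-3p as labelled, the 199 detected genes whose probe held a heptamer pairing with that miRNA's seed had a median log2 ratio on its array 0.02 above that of the other genes. On the other 7 arrays the same difference for the array's own miRNA lay between -0.08 and -0.02. For the miR-139-5p seed it was -0.03 on its own array but -0.04 on the array labelled miR-143-3p. For the miR-139-3p seed it was -0.021 on its own array and -0.016 on the miR-30c-2-3p array. The check thus did not set the miR-139 arrays apart from arrays of other miRNAs. Whether the array labelled miR-143-3p holds what its label says was not settled here, and this bears on its values for LIMK1 and FSCN1, reported targets of that miRNA.

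The 10 genes had 16 probes, 2 each for 6 genes and 1 each for the other 4. All 16 were well above background in both channels of all 8 arrays, and no spot of theirs was saturated or called an outlier. Each gene is described by its brightest probe, as the log2 ratio of transfected over mock after background correction and loess normalisation. A ratio counted as lower or higher at 1.5-fold, which is 0.58 on the log2 scale.

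Of the 80 pairs of a member and an array, 8 were at least 1.5-fold lower and 4 at least 1.5-fold higher. The lower ones were TWF1 with miR-30c-5p, miR-30a-5p and miR-143-3p, LIMK1 with miR-139-3p and miR-30c-2-3p, ROCK2 with miR-30a-3p, and RHOA and FSCN1 with miR-143-5p. The higher ones were LIMK1 with miR-30c-5p, FSCN1 with miR-30c-2-3p, CFL1 with miR-139-3p and RAP1B with miR-143-5p. At 2-fold, 4 pairs were lower and 0 higher, where 1.36% and 0.77% of all detected genes over the 8 arrays passed that size. ROCK1, LIMK2 and SSH1 passed 1.5-fold on no array, but SSH1 did so with miR-139-3p in 4 of 6 alternative settings, and LIMK2 with miR-30c-2-3p in 2. ROCK1 passed lower with miR-139-5p in 2, higher with miR-143-5p in 2 and higher with miR-30c-2-3p in 1. Of the 12 pairs past 1.5-fold, 7 passed in all 6 alternatives and 5 did not, namely RHOA, FSCN1 and RAP1B with miR-143-5p, LIMK1 with miR-30c-2-3p and TWF1 with miR-143-3p. When the arrays were centred on their medians in place of loess, 4 pairs were lower and 17 higher at 1.5-fold. The balance of directions thus rests on removing the intensity trend. All detected genes were not counted under that centring, so this shift cannot be called particular to the members.

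Read array by array, miR-139-5p had 0 of 10 members past 1.5-fold, with a background of 1.1% of detected genes lower and 0.753% higher. With miR-139-3p 1 member was lower and 1 higher, against 8.18% and 7.41%. The counts for miR-143-5p were 2 lower and 1 higher, against 4.07% and 2.7%. The miR-143-3p array had 1 lower and 0 higher, against 4.74% and 3.18%.

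The PANC-1 arrays gave similar counts. With miR-30c-5p 1 member was lower and 1 higher, where 2.52% and 3.2% of detected genes passed. The miR-30c-2-3p array also had 1 lower and 1 higher, against 10.2%, the highest lower share of the 8 arrays, and 7.07%. The miR-30a-5p array had 1 lower and 0 higher, against 1.7% and 1.83%, and miR-30a-3p likewise had 1 lower and 0 higher, against 3.76% and 3.37%. As 10 genes cannot resolve shares this small, the counts describe the members only. The median of the members ran from -0.13 (miR-143-5p) up to 0.23 (miR-30c-2-3p), where medians of all detected genes were 0.01 to 0.02. Under median centring the members' median turned positive on the miR-143-5p array (0.03) and the miR-30a-3p array (0.42, from -0.11). Medians of all detected genes were not computed under that setting.

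**Figure D1:**
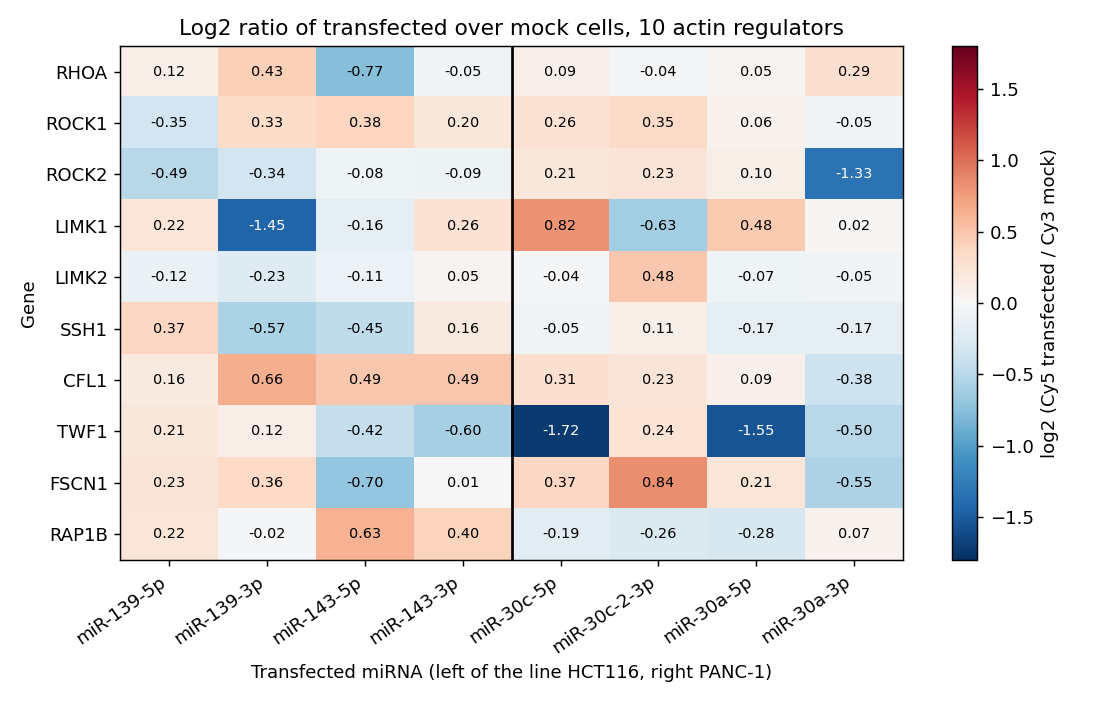
Log2 ratio of transfected over mock cells (colour and printed value) for the brightest probe of each of the 10 genes (rows) on each of the 8 arrays (columns), 1 array per miRNA, HCT116 left and PANC-1 right of the line. The darkest blue cells are TWF1 for the miR-30 guide strands (-1.72 and -1.55), LIMK1 with miR-139-3p (-1.45) and ROCK2 with miR-30a-3p (-1.33).

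TWF1 was lowest with the 2 miRNAs that share the seed GUAAACA. Its probe lies at chr12:44187863-44187922 of hg19, minus strand. The log2 ratio was -1.72 for miR-30c-5p, a 3.29-fold lower signal, and -1.55 for miR-30a-5p, a 2.92-fold lower one. With the passenger strands of the same precursors it was 0.24 (miR-30c-2-3p) and -0.50 (miR-30a-3p). Each guide array can thus be set against the passenger array of the same mock, on which TWF1 was within 1.5-fold of mock.

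In the HCT116 cells TWF1 stood at 0.21 and 0.12 for the 5p and 3p strands of miR-139, and at -0.42 and -0.60 for those of miR-143. The last of these passed 1.5-fold in 3 of 6 alternatives, and no HCT116 value came near those of the miR-30 guide strands. Of all detected genes, 0.0192% lay below TWF1 on the first guide array, that of miR-30c, and 0.0525% on that of miR-30a. The 2 mock cultures of PANC-1 differed by 0.03 for this probe, with Cy3 levels of 10.54 and 10.58. Over the 6 alternatives the guide values ran from -1.88 to -1.21 for the former and from -1.64 to -1.17 for the latter guide strand. The 60 bases of the probe hold no heptamer that pairs with the shared seed, and the rest of the transcript was not searched here.

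LIMK1, the LIM kinase that inactivates cofilin, had the widest range of the members, 2.26 from its lowest to its highest log2 ratio. The probe is at chr7:73536663-73536722, plus strand. Its ratio was -1.45 with miR-139-3p, a 2.73-fold lower signal, while with the guide strand miR-139-5p, against the same mock, it was 0.22. With miR-143-5p it stood at -0.16 and with miR-143-3p, of which LIMK1 is a reported target, at 0.26. The HCT116 mock cultures of the miR-139 and miR-143 arrays differed by 0.63 for LIMK1, at 9.39 and 8.75, so 0.26 lies inside that spread. Against the mean mock of the line the miR-143-3p value was -0.05.

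In PANC-1 LIMK1 was high with both guide strands, 0.82 for miR-30c-5p and 0.48 for miR-30a-5p, while the passenger strands gave -0.63 (miR-30c-2-3p) and 0.02 (miR-30a-3p). Under median centring these became -0.45, no longer past 1.5-fold, and 0.68, and the second turned negative in 3 other alternatives. On the same 2 guide arrays where TWF1 was lowest, LIMK1 had its highest ratios. The PANC-1 mock cultures differed by 0.32, at 8.88 and 9.20. The value with miR-30c-5p exceeds that difference in all 6 alternatives, which ran from 0.71 to 1.30, and the value with miR-139-3p ran from -1.75 to -1.14.

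ROCK2, a kinase activated by RHOA and a reported target of miR-139-5p, had its lowest value with another miRNA. With miR-139-5p the brighter probe, at chr2:11322044-11322103 on the minus strand, gave a log2 ratio of -0.49, within 1.5-fold. Only 1.72% of detected genes were lower on that array, where the members' median was 0.18, and the value passed 1.5-fold in 3 of 6 alternatives. It was at -0.34 for miR-139-3p and at -0.08 and -0.09 for the 5p and 3p strands of miR-143, so all 4 HCT116 values were below 0. The HCT116 mock cultures differed by -0.09 for this probe. Scanner log ratios, which add no offset, were -0.71 and -0.58 for the 5p and 3p strands of miR-139.

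In PANC-1 the same probe stood at 0.21 for miR-30c-5p and 0.23 for miR-30c-2-3p, and the 5p and 3p strands of miR-30a gave 0.10 and -1.33. The miR-30a-3p array thus stood apart from the other 3, with a 2.51-fold lower signal and 0.467% of detected genes lower. The PANC-1 mock cultures differed by 0.01 for the probe. Alternatives ran from -2.11 for the scanner log ratio to -0.87 for the median over both probes. The second, dimmer ROCK2 probe, at chr2:11323476-11323535, gave -0.41 with miR-30a-3p, or -1.01 as scanner log ratio. Its raw signal there was 59.4 in Cy3 and 56.2 in Cy5 over median backgrounds of 17 and 20, and the offset of 50 pulls the ratios of such dim probes towards 0.

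In PANC-1 the second probe was likewise lowest with miR-30a-3p, with 0.29, 0.24 and 0.10 on the other 3 arrays, and it gave -0.17, -0.18, 0.01 and -0.09 in HCT116 in the order above. Of all 16 member probes it is the only one that holds a heptamer pairing with bases 2 to 8 of any of the 8 miRNAs, or with bases 2 to 7 followed by A. Its match is to miR-30a-3p, and 30 bases of the probe are shown, read on the transcript's strand, with the match in capitals.
ROCK2 probe, around bases 33 to 39: gtgaaaacaagACTGAAAtatgatggccca
The heptamer ACTGAAA was searched on this strand alone and is present in 525 of the 58201 probes, or 0.902%. Either heptamer of miR-30a-3p is in 1.79% of probes, and those of the other miRNAs are in 0.591% to 1.07%. As all 16 probes were searched for all 8 miRNAs, 1 match does not set this probe apart. The match is a description of the letters and was not tested as a site.

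**Figure D2:**
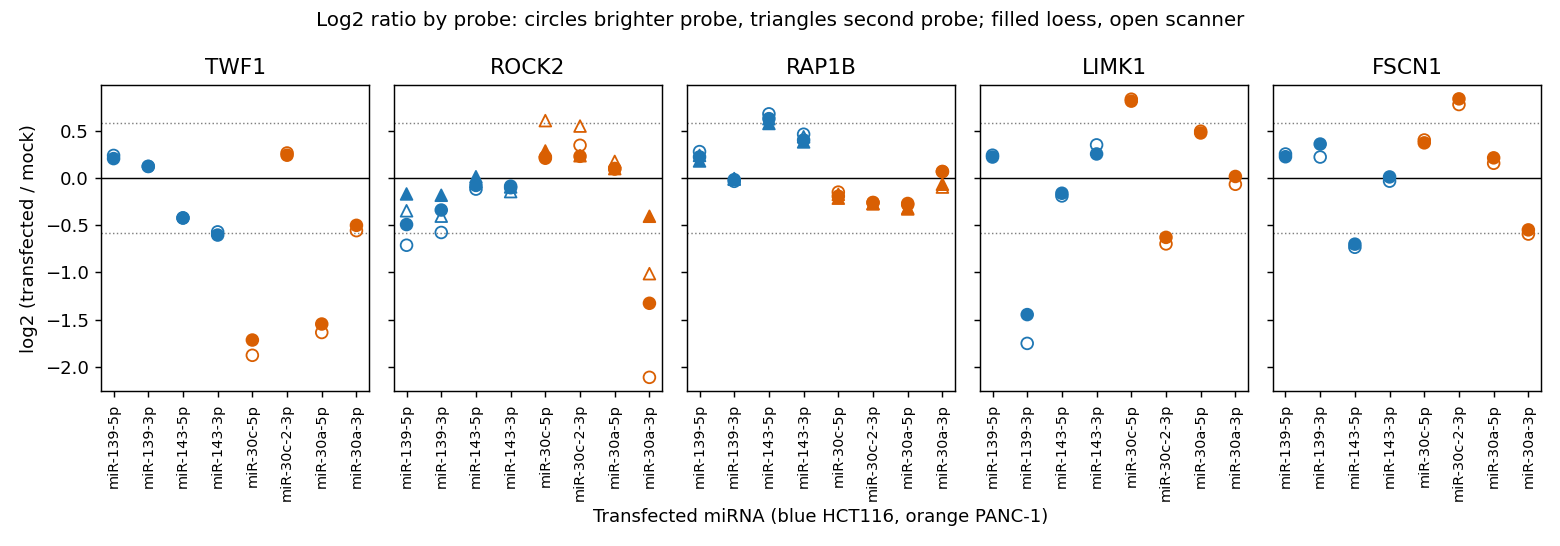
Log2 ratio of transfected over mock (vertical axis) on the 8 arrays (horizontal axis; blue HCT116, orange PANC-1) for the 5 reported targets. Circles are the brighter probe and triangles the second where there is one, filled for loess and open for scanner values, and dotted lines mark 1.5-fold; TWF1 is at -1.72 and -1.55 with the miR-30 guide strands, and ROCK2 is lowest with miR-30a-3p by both probes.

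FSCN1, the bundling protein fascin and a reported target of miR-143-3p, stood at 0.01 with the miRNA so labelled. Its single probe is at chr7:5646220-5646279, plus strand. With miR-143-5p, against the same mock, it was -0.70, a 1.63-fold lower signal with 2.66% of detected genes lower. With miR-139-5p it was 0.23 and with miR-139-3p 0.36. The low value in HCT116 was thus with the passenger strand of miR-143, and the HCT116 mock cultures differed by -0.24.

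In PANC-1 FSCN1 was at 0.37 for miR-30c-5p and 0.84 for miR-30c-2-3p, and at 0.21 and -0.55 for the 5p and 3p strands of miR-30a. The 2 passenger strands lay at opposite ends, 1.79-fold higher for miR-30c-2-3p and within 1.5-fold of mock for miR-30a-3p. The PANC-1 mock cultures differed by 0.15. Median centring turned the value with miR-30a-3p to 0.39 and moved that with miR-143-5p to -0.32, and no alternative put the miR-143-3p value outside -0.18 to 0.14.

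RAP1B, the Ras-family GTPase reported as a target of miR-139-5p, stood at 0.22 on that array, above 90.9% of detected genes. The brighter probe is at chr12:69054229-69054288, plus strand, and the second shares 14 bases with it. Elsewhere in HCT116 the ratio was -0.02 for miR-139-3p, and it was 0.63 and 0.40 for the 5p and 3p strands of miR-143. Both miR-143 strands thus gave values above 0, while the mock cultures differed by -0.12. Against the mean mock of the line the miR-143-5p value was 0.576, no longer past 1.5-fold. The second probe gave 0.18, -0.01, 0.58 and 0.38 on the same 4 arrays.

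In PANC-1 RAP1B was at -0.19 for miR-30c-5p and -0.26 for miR-30c-2-3p, and at -0.28 and 0.07 for the 5p and 3p strands of miR-30a. These are small values, but under median centring the first 3 turned positive and the last moved to 0.95, past 1.5-fold. Its second probe gave -0.21, -0.27, -0.33 and -0.07. No value of RAP1B on any array was lower by 1.5-fold.

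RHOA, which sits above ROCK1 and ROCK2, was 1.70-fold lower with miR-143-5p, at -0.77, with 2.14% of detected genes lower. The other HCT116 values were 0.12 and 0.43 for the 5p and 3p strands of miR-139 and -0.05 for miR-143-3p. In PANC-1 RHOA stood at 0.09 for miR-30c-5p and -0.04 for miR-30c-2-3p, and at 0.05 and 0.29 for the 5p and 3p strands of miR-30a. After loess miR-143-5p alone passed 1.5-fold, and the HCT116 mock cultures differed by 0.15 for this probe, at chr3:49397212-49397271. Under median centring its value was -0.48 and no longer passed, while RHOA stood at 1.06 with miR-30a-3p and 0.64 with miR-30c-5p. A second, dim probe starts 52626 bases away and is assigned to another transcript, and its ratios lay between -0.10 and 0.08 on all 8 arrays. The median over both probes with miR-143-5p was -0.44, which no longer passed 1.5-fold.

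ROCK1, the paralogue of ROCK2, stood at -0.35 and 0.33 for the 5p and 3p strands of miR-139, and at 0.38 and 0.20 for those of miR-143. The miR-139-5p array was the only one of the 4 below 0, and there 4.03% of detected genes were lower. In PANC-1 its ratio was 0.26 for miR-30c-5p and 0.35 for miR-30c-2-3p, and 0.06 and -0.05 for the 5p and 3p strands of miR-30a. On the miR-139-5p array ROCK1 and ROCK2 were thus both below 0, and on the miR-30a-3p array ROCK2 alone was far from it. The probe, at chr18:18535132-18535191, is dim, with raw Cy3 signals of 61.7 to 79.3, and its scanner log ratio with miR-139-5p was -0.75. As scanner log ratio it was also past 1.5-fold, but higher, with miR-143-5p (0.64) and miR-30c-2-3p (0.66).

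LIMK2, the second LIM kinase, was at -0.12 and -0.23 for the 5p and 3p strands of miR-139, and at -0.11 and 0.05 for those of miR-143. In PANC-1 the values were -0.04 for miR-30c-5p and 0.48 for miR-30c-2-3p, and -0.07 and -0.05 for the 5p and 3p strands of miR-30a. With miR-139-3p and miR-30c-2-3p, the arrays on which LIMK1 was lower, LIMK2 was within 1.5-fold of mock after loess. The value with miR-30c-2-3p was 0.63 as scanner log ratio and 0.64 under median centring, both past 1.5-fold. The second LIMK2 probe, assigned to another transcript and dim, lay between -0.05 and 0.24.

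SSH1, the cofilin phosphatase, stood at 0.37 and -0.57 for the 5p and 3p strands of miR-139, and at -0.45 and 0.16 for those of miR-143. Its mock level differed by 0.89 between the HCT116 cultures, 7.39 beside miR-139 and 8.28 beside miR-143, the widest such difference among the members. Against the mean mock of the line the miR-139-5p value was -0.10 and the miR-143-5p value 0.03. For the brighter probe the sign of both thus rests on which mock is used. The miR-139-3p value was negative in all 6 alternatives, from -1.01 to -0.52. In PANC-1 SSH1 was at -0.05 for miR-30c-5p and 0.11 for miR-30c-2-3p, and at -0.17 for both strands of miR-30a. The second probe, 4549 bases away and assigned to another transcript, disagreed in sign with miR-143-3p (-0.23), miR-30c-5p (0.66) and miR-30a-5p (0.32). With miR-139-5p and miR-143-5p it gave 0.46 and -0.40, the same signs as the brighter probe, and its HCT116 mock levels differed by only 0.10. It was dim on those arrays, with raw Cy3 signals of 53.0 and 62.6.

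CFL1, the severing protein cofilin, was above 0 on 7 of 8 arrays. In HCT116 it was at 0.16 and 0.66 for the 5p and 3p strands of miR-139, and at 0.49 for both strands of miR-143. The value with miR-139-3p, where LIMK1 was lowest, was a 1.58-fold higher signal, and the second probe gave 0.61 there. In PANC-1 CFL1 was at 0.31 for miR-30c-5p and 0.24 for miR-30c-2-3p, and at 0.09 and -0.38 for the 5p and 3p strands of miR-30a. The second probe gave -0.56 with miR-30a-3p, but median centring turned the brighter probe's value there to 0.46. With miR-139-5p the probes disagreed in sign, as the second was at -0.08. The HCT116 mock cultures differed by -0.14 and the PANC-1 cultures by 0.14 for the brighter probe.

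The mock channels also allowed a comparison of the 2 untransfected lines, with 2 mock samples per line. It was tested by limma over 26005 probes, with Benjamini-Hochberg adjustment and a threshold of 0.05. Of the 16 member probes, 5 were higher in HCT116, where 21.9% of all probes were so called, and 6 were higher in PANC-1, against 20.9%. The other 5 did not pass. The mock samples are named by their precursor, and nothing in the labels says that they came from separate cultures, so the p-values measure the spread between these samples. In bulk RNA a lower level per cell and fewer expressing cells cannot be told apart.

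RAP1B differed most of the members. Its log2 Cy3 level was 10.72 and 10.60 in the HCT116 mock samples and 12.82 and 12.83 in those of PANC-1. The limma difference of HCT116 minus PANC-1 was -2.16 ± 0.07 (SE), a 4.48-fold higher signal in PANC-1 with adjusted p = 0.00109, and the second probe gave -2.12. FSCN1 was also higher in PANC-1, at 13.87 and 14.02 against 13.10 and 12.86 in HCT116, by -0.97 ± 0.11 (limma, adjusted p = 0.00817). CFL1 was higher in PANC-1 by both probes, -0.78 ± 0.09 and -0.62 ± 0.08 (limma, adjusted p = 0.00748 and 0.0109).

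The genes higher in HCT116 were LIMK2, RHOA and TWF1. LIMK2 stood at 8.65 and 8.62 in HCT116 and 7.78 and 7.77 in PANC-1, a difference of 0.86 ± 0.05 (limma, adjusted p = 0.00256), and its dim probe at 0.24 ± 0.06 (limma, adjusted p = 0.0487). RHOA stood at 11.23 and 11.39 against 10.51 and 10.61, by 0.75 ± 0.08 (limma, adjusted p = 0.00733), whereas its dim probe did not pass (0.04, limma, adjusted p = 0.621). TWF1 was at 10.94 and 11.14 against 10.54 and 10.58, by 0.48 ± 0.09 (limma, adjusted p = 0.0213). For the brighter probe of each of these genes the 2 mock samples of HCT116 did not overlap those of PANC-1. This does not set them apart, as it also held for ROCK1 and the brighter ROCK2 probe, which did not pass. By single channel ROCK1 did overlap, at 6.76 to 6.96 in HCT116 and 6.67 to 6.80 in PANC-1. The share of all probes without overlap was not counted.

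The remaining 4 genes were not settled. LIMK1 differed by 0.03 ± 0.26 (limma, adjusted p = 0.942) and ROCK1 by 0.10 ± 0.07 (limma, adjusted p = 0.337). The ROCK2 probes went opposite ways, -0.20 (limma, adjusted p = 0.0667) for the brighter and 0.39 (limma, adjusted p = 0.0474) for the dimmer. With the precursor as a random block the brighter ROCK2 probe passed too (limma, adjusted p = 0.037), which made 7 member probes higher in PANC-1. The SSH1 probes also went opposite ways, at 0.21 (limma, adjusted p = 0.656) and -0.40 (limma, adjusted p = 0.0453). Without the filter on dim probes the dimmer probes of ROCK2, SSH1 and LIMK2 did not pass (limma, adjusted p = 0.104, 0.0999 and 0.0606). Without either PANC-1 mock sample, called member probes dropped to 1 higher in HCT116 and 2 higher in PANC-1, and CFL1, FSCN1, RHOA and TWF1 no longer passed, with adjusted p of 0.0565 to 0.137.

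**Figure D3:**
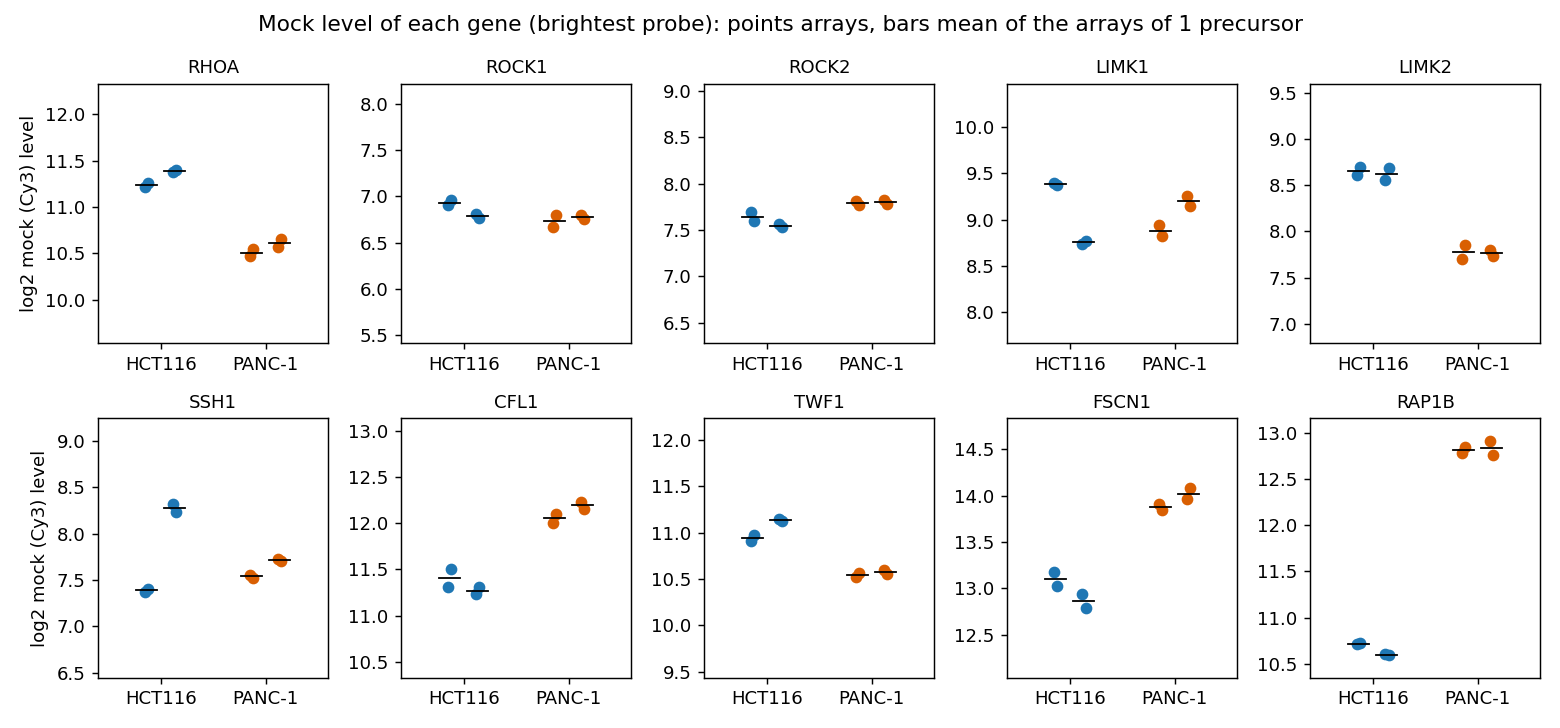
Log2 mock (Cy3) level of the brightest probe of each gene (vertical axis, each panel spans the same width) in HCT116 and PANC-1; points are arrays and bars are the mean of the 2 arrays of a precursor. RAP1B, FSCN1 and CFL1 were higher in PANC-1 and LIMK2, RHOA and TWF1 higher in HCT116, while the bars of LIMK1 and SSH1 differ within HCT116.

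Around the members, 137 other genes of the pathway were counted in 5 lists. They include ROCK substrates and myosin II (25 genes), the cofilin cycle and monomer binding (20), filament nucleation, capping and bundling (42) and the Rap1 cycle (20). At 1.5-fold, the first had 1 to 3 genes lower and 1 to 5 higher on an array, and the second 0 to 4 lower and 0 to 2 higher. The Rap1 list had 0 to 2 lower and 0 to 3 higher. By array, 1.1% to 10.2% of all detected genes were lower and 0.753% to 7.41% higher. The 5 higher of the first list and the 4 lower of the second were both with miR-30c-2-3p, where 7.07% and 10.2% of all genes passed. Between 132 and 134 of the 137 genes were detected on an array. Of all of them, 18 were lower and 5 higher at 1.5-fold with miR-30a-3p, 13.4% and 3.73% of those detected, whereas miR-30c-5p had 1 lower and 16 higher, 0.752% and 12%. The shares of all detected genes were 3.76% and 3.37% on the former array and 2.52% and 3.2% on the latter. The miR-30a-5p array had 1 lower and 10 higher, 0.752% and 7.52%, against 1.7% and 1.83%. Under median centring the counts with miR-30a-3p became 3 lower and 48 higher, and with miR-30c-5p 0 lower and 67 higher. The direction of the list with miR-30a-3p thus depends on the normalisation. All detected genes were not counted under that centring, here or below, so these counts cannot be set against a background.

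On the remaining arrays the counts of lower and higher genes were 3 and 1 for miR-139-5p, 16 and 13 for its 3p strand, 13 and 8 for miR-143-5p, 10 and 8 for its 3p strand, and 21 and 13 for miR-30c-2-3p. As shares of the detected list they were 2.26% and 0.752% (all genes 1.1% and 0.753%), 12% and 9.77% (8.18% and 7.41%), 9.7% and 5.97% (4.07% and 2.7%), 7.58% and 6.06% (4.74% and 3.18%), and 15.9% and 9.85% (10.2% and 7.07%). Under median centring these became 1 and 11, 15 and 14, 7 and 25, 10 and 11, and 11 and 31. The balance therefore turned with miR-139-5p, miR-143-5p, miR-143-3p and miR-30c-2-3p.

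The filament list had 9 of 40 detected genes lower and 0 higher with miR-30a-3p, where 3.76% and 3.37% of all genes were so. TPM4, a tropomyosin that coats filaments, was the lowest pathway gene there at -1.995. On the same array ARPC1A, an Arp2/3 subunit, was at -1.74 and PLS3, a filament bundler, at -1.25, both picked after their values were seen. With median centring 2 of the 40 were lower and 14 higher, while TPM4 stayed below 0 in all alternatives, from -2.22 to -1.33. With miR-30c-5p 6 of 40 filament genes were higher and 0 lower, against 3.2% and 2.52% of all genes, and with miR-30a-5p 5 of 40 and 0, against 1.83% and 1.7%. On these 2 arrays the highest pathway gene was MYL9, a myosin II light chain, at 1.69 and 1.33. The lowest was CIT, citron kinase, at -0.67 and -0.62, both smaller in size than the values of TWF1 and no longer past 1.5-fold at their smallest over the alternatives, -0.16 and -0.26.

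The highest gene with miR-30a-3p was RAP2C, a Rap-family GTPase, at 0.95. With miR-30c-2-3p 9 of 41 filament genes were lower and 2 higher, against 10.2% and 7.07% of all genes. The lowest pathway gene there was SIPA1, which inactivates Rap1, at -1.98, and the highest was RAPGEF2, which activates Rap1, at 1.07. RAP1B itself stood at -0.26 there. Median centring gave 3 lower and 11 higher in the filament list.

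In HCT116 the lowest pathway gene with miR-139-3p was RAC3, a Rac GTPase, at -1.28. The highest there was MYL12A, a myosin II light chain, at 1.24. With miR-139-5p TMSB4X, the monomer-binding thymosin beta 4, was lowest at -0.83 and RDX (radixin), which links filaments to the membrane, highest at 0.63. Over the alternatives these reached -0.54 and 0.38, within 1.5-fold.

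With miR-143-5p TMSB10, another thymosin, was lowest at -1.42 and the GTPase RHOC highest at 0.79, while RHOA was at -0.77. With miR-143-3p RHOQ was lowest at -1.25 and RHOB highest at 1.32, both small GTPases, though RHOQ at its smallest over the alternatives was at -0.36, within 1.5-fold. The members RHOA and ROCK2 stayed within 0.10 of 0 on that array.

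**Figure D4:**
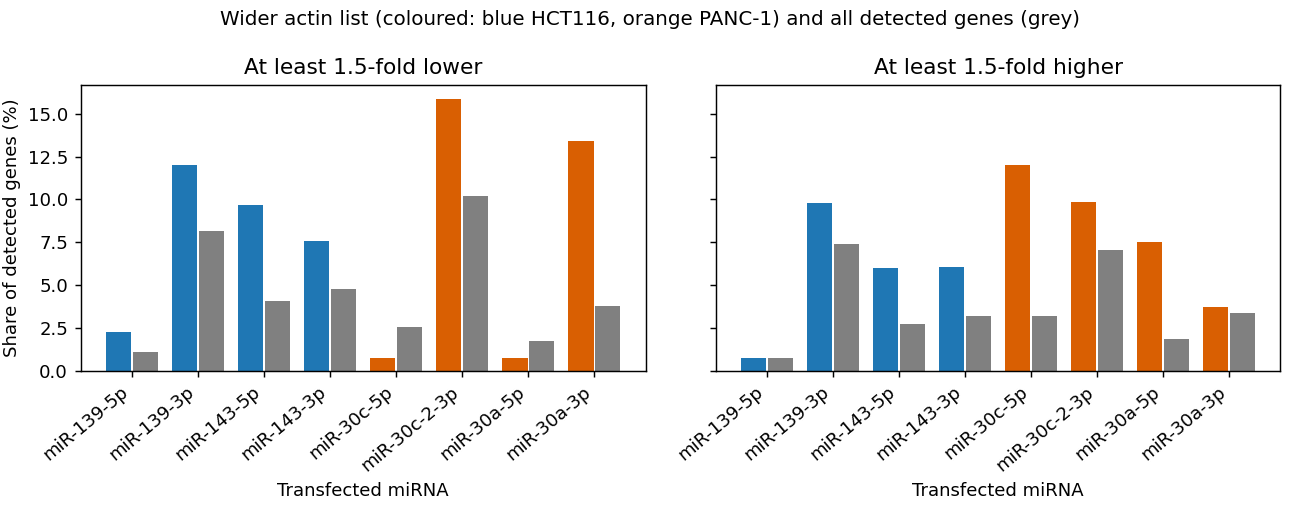
Share in percent of detected genes at least 1.5-fold lower (left) and higher (right) on each array, for the 137 other pathway genes (blue HCT116, orange PANC-1) and for all detected genes (grey), after loess. With miR-30a-3p the lower share of the pathway genes was 13.4% against 3.76% of all genes, and with miR-30c-5p the higher share was 12% against 3.2%; both are values of 1 array without a test.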

How the data were processed

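RNA of miRNA-transfected (Cy5) and mock (Cy3) cells was measured on 8 arrays, and groups were taken from the labels. Per the file headers, Feature Extraction 11.5.1.1 gave the intensity of each spot and its local background, and a log ratio. The authors also deposited those log10 ratios as a processed table; they were turned to log2 here. Of its columns, 0 were left without a sample. Intensities were corrected by normexp (offset 50) and normalised by loess within arrays, using limma (version 3.58.1, R 4.3.3). Outlier spots were left out, spots of a probe were averaged, and a gene was given by its brightest probe. Genes counted as detected where either channel of this probe was well above background. Median spot intensity was 22.2 to 26.5 over a median background of 17 to 20.

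Mock channels were quantile normalised on the mean signal, arrays of 1 precursor were averaged and the lines compared by limma on probes well above background on at least 4 arrays. The limma step was checked on simulated data with independent noise. That check does not bear on line and slide column, which cannot be told apart here. Tables were made in Python with pandas 2.3.3 and plots with matplotlib 3.10.9. The members, the pathway lists and the tests were chosen with earlier results of these data known. Named were all members on all arrays, the lowest and the highest pathway gene on each array among those well above background in both channels, and for each of the 5 reported targets the 2 genes most like it by Pearson r. Alternatives were no background correction, an offset of 1, the scanner log ratio, median centring, the median over probes, the mean mock of the line, and for the mock test a random block, other signals, no dim filter and leaving out each mock sample. Probe positions are those of the files on hg19, and exon and UTR annotations were not used here. Proteins and transcript sequences were not used here either. Of the 5 pathway lists 1 is not reported here by itself.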

Additional observations from a re-analysis of the deposited data

How the results depend on the processing

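No paired analysis was possible because each group was 1 array, and its replicate number is only a name. The 12 values past 1.5-fold kept their sign in all 6 alternatives, and 5 of them lost 1.5-fold in at least 1. Median centring moved the counts at 1.5-fold from 8 to 4 lower and from 4 to 17 higher, and at 2-fold from 0 to 4 higher. It also moved TWF1 to -1.21 and -1.17 for the 5p strands of miR-30c and miR-30a, RAP1B with miR-139-5p to 0.53, and the members' medians to 0.48 for miR-139-5p, 0.56 for miR-30c-5p and 0.42 for miR-30c-2-3p, and to 0.31 and 0.42 for the 5p and 3p strands of miR-30a. By construction it leaves intensity trends in place, and all detected genes were not counted under it. The scanner log ratio gave 7 pairs at least 1.5-fold higher, and the mean mock of the line put LIMK1 with miR-143-3p at -0.048; the cause was not tested.

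All probes called between the mock lines numbered 11126, and 2375 to 11481 when 1 mock sample was left out, the lone remaining sample being assumed to vary like the other line. Member probes called higher in HCT116 then numbered 1 to 5 and those higher in PANC-1 2 to 6. Without the filter on dim probes 3 member probes were higher in HCT116. Dim probes limit the precision: the offset brings their ratios towards 0.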

Other observations

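For each of the 5 reported targets, the genes with the most similar ratios over the 8 arrays were sought among 7912 genes that were detected on all arrays and varied at least as much as the median gene. The values describe 8 arrays of which pairs share a mock, and carry no test. Picking the top of 7912 genes over so few arrays by itself favours a high r. SLC2A1, the glucose transporter GLUT1, was most like LIMK1, with Pearson r = 0.99, and its log2 ratio was -2.07 for miR-139-3p and -1.29 for miR-30c-2-3p, and 0.80 and 0.56 for the 5p strands of miR-30c and miR-30a. UBAP2 followed at r = 0.97. SCAF11 (r = 0.96) and HAUS2 (r = 0.95), an augmin subunit, were most like ROCK2 and stood at -1.26 and -1.57 with miR-30a-3p.

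VAPA, a membrane protein of the endoplasmic reticulum (r = 0.97), and CDKN2C, an inhibitor of cyclin-dependent kinases (r = 0.96), were most like TWF1, with smaller ratios of -0.53 and -0.61 for miR-30c-5p, and -0.54 and -0.53 for miR-30a-5p. CUL4B, a ubiquitin ligase scaffold (r = 0.98), and AKAP9 (r = 0.96) were most like FSCN1, with CUL4B at -1.01 and AKAP9 at -0.21 with miR-143-5p. C7orf43, whose current symbol is TRAPPC14 (r = 0.97), and PPP1R14B (r = 0.95) were most like RAP1B, at 0.80 and 0.32 with miR-143-5p.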
